A study of Mus musculus with 12 samples.

Results

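Metallothioneins and the genes that move zinc across membranes were followed through the ventricles of mice that carry human phospholamban. The 5 genes were the metallothioneins Mt1 and Mt2, the metal-responsive transcription factor Mtf1, the zinc exporter Slc30a1 (ZnT1) and the zinc importer Slc39a14 (ZIP14). Their rows were found by gene symbol, and they are 5 of 33641 genes listed for each of 12 samples. All 5 were among the 12526 genes whose mean reached 0.5 TPM, the level needed to enter the tests. TPM is the share of a gene's transcripts in all transcripts of a sample after division by gene length, scaled to the same total in each sample, so levels can be set side by side between genes.

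Whole left (LV) and right (RV) ventricle of hearts frozen at 12 to 14 weeks of age was sequenced, with 3 samples in each of 4 groups: LV WT-PLN, RV WT-PLN, LV R14del-PLN and RV R14del-PLN. In both genotypes the human phospholamban coding sequence had been targeted into exon 2 of mouse Pln, so the WT-PLN controls, wild-type in the labels, are knock-in animals as well. The mutant allele lacks the codon for arginine 14 of phospholamban, the inhibitor of the cardiac calcium pump, and the study describes its mutants as heterozygous. The sample titles call them KO, although the genotype label is R14del-PLN and no gene was deleted. The strain label is C57BL/6J, while the founder chimeras came from 129/Sv-CP and C57Bl/6J and were crossed to Sox2-Cre mice, whose recombinase acts in the whole embryo. The knock-in, made by gene targeting, is carried by every cell and not by cardiomyocytes alone. In bulk tissue, fewer cells of a type and less RNA per cell cannot be told apart. The labels do not say which samples came from the same mouse or that samples of a group came from separate mice, so p-values measure the spread between these samples.

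Metallothioneins are small, cysteine-rich proteins of the cytosol that bind zinc and copper, buffer free zinc and take up heavy metals such as cadmium. MTF1 senses free zinc, enters the nucleus and binds short metal response elements in the promoters of metallothionein genes and of Slc30a1, which carries zinc out of the cell. SLC39A14 works in the opposite direction and brings zinc, iron and manganese into the cell. Metallothionein genes are also known to be induced by glucocorticoids, and Slc39a14 by interleukin-6.

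The letters of a metal response element core were searched in the promoters because Mt1 and Mt2, the members with the largest differences between the genotype means, lie on the same chromosome a short way apart. In GENCODE positions on GRCm38, Mt2 spans chr8:94172664-94173568 and Mt1 spans chr8:94179082-94180327, both on the plus strand, with 5513 bases between the end of Mt2 and the start of Mt1. The cores searched were TGCACNC and TGCGCNC, on both strands, in the RefSeq windows from 250 bases before to 50 bases after each gene start (GRCm38.p6). A window was found for 4 of the 5 genes, and none for Slc39a14. Overlapping matches were counted once. The first 280 bases of the windows of Mt1, Mt2 and Slc30a1 are shown 5′ to 3′ on the plus strand, which is the strand of these genes, with each match in capitals. A match to the minus strand reads as its reverse complement.
Mt1, chr8:94178839-94179118: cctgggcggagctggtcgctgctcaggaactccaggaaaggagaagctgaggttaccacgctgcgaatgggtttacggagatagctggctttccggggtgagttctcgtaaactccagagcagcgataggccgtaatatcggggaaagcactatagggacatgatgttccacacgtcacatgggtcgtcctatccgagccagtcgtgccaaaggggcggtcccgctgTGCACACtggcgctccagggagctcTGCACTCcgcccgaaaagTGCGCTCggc
Mt2, chr8:94172368-94172647: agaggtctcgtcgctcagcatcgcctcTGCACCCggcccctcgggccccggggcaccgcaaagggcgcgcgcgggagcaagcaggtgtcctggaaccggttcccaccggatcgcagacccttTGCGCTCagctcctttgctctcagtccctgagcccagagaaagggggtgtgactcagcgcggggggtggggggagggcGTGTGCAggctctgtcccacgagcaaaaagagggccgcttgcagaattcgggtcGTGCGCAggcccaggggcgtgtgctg
Slc30a1, chr1:191906531-191906810: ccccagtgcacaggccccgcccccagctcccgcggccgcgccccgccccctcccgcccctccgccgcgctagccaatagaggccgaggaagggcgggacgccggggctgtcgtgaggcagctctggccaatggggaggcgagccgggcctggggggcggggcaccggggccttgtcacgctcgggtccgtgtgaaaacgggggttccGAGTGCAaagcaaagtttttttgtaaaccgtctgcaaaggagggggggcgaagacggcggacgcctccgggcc
Positions count the RefSeq gene start as 1, and GENCODE places some starts elsewhere. For Mt2 the GENCODE start, 94172664, lies near the end of the whole window, 94172368 to 94172667. Sequence outside the windows was not searched, so elements near another start would be missed. The Mt1 matches began at positions -23, 3 and 21. The Mt2 matches began at -223, -128, -50 and 5, the last 2 of them on the minus strand. Slc30a1 had a match at -43, and a second at 31, just past the printed stretch. Mtf1 had none. Among all 32851 promoter windows of the same length, 25.7% held at least 1 match, 6.14% at least 2, 1.31% at least 3 and 0.295% at least 4. These are matches of letters and not measured binding.

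Mt1 was the most abundant of the 5 genes, with a mean of 154 TPM over the 12 samples, above 96.8% of the genes tested. Mt2 followed with 24.6 TPM, Slc39a14 with 15.4 TPM, Mtf1 with 2.95 TPM and Slc30a1 with 2.90 TPM. Mt1 and Mt2 levels separated the genotypes in both ventricles, with Mt2 lower by the larger factor, and Slc30a1 levels did so by a smaller factor in the LV.

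The level of Mt2 in the LV was 28.7, 58.1 and 54.1 TPM in the WT-PLN samples and 8.25, 13.2 and 15.2 TPM in the R14del-PLN samples. Every R14del-PLN sample was below every WT-PLN sample. WT-PLN averaged 47.0 ± 16.0 TPM and R14del-PLN 12.2 ± 3.57 TPM (SD, n = 3 each), a 3.85-fold higher level in WT-PLN. On the log2(TPM + 1) scale, Mt2 fell by 1.84 in R14del-PLN LV (standard error 0.33, 95% confidence interval -2.54 to -1.13, limma adjusted p = 0.0236). The comparison called 0.519% of all genes tested in either direction and 0.423% as lower at the threshold (adjusted p no higher than 0.05, change of 1.5-fold or more), and Mt2 was the 1 member called. The call was lost when any 1 of 4 LV samples was left out, namely WT-PLN replicate 2 (adjusted p = 0.124), WT-PLN replicate 3 (0.123), R14del-PLN replicate 1 (0.134) or R14del-PLN replicate 2 (0.0792) by limma, while the log2 difference stayed between -2.15 and -1.60.

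In the RV, Mt2 measured 20.6, 36.0 and 33.5 TPM in WT-PLN and 11.6, 5.32 and 10.7 TPM in R14del-PLN. Again no R14del-PLN sample reached the WT-PLN range. WT-PLN averaged 30.03 ± 8.27 TPM and R14del-PLN 9.21 ± 3.39 TPM (SD, n = 3 each), and the level was 3.26-fold higher in WT-PLN. The log2 difference of -1.63 (standard error 0.33, 95% confidence interval -2.33 to -0.93) did not pass the threshold by limma (adjusted p = 0.0652), in a comparison that called 0.271% of all genes, 0.2% of them as lower. It stayed uncalled in 17 of 24 alternatives, with limma adjusted p up to 0.311 over all of them. It passed in 7. Among these were the fits without WT-PLN replicate 1 of the RV (log2 -1.87, limma adjusted p = 0.0445) and without both WT-PLN samples of number 1 (log2 -1.87, limma adjusted p = 0.00944).

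Those 2 WT-PLN samples numbered 1, from LV and RV, stood apart from the others. Y-linked genes were listed at 0.0159 to 0.191 TPM in them and at 3.03 to 30.6 TPM in the remaining 10 samples, while the study describes its mice as male. They also held the lowest Mt2 level of their groups, at 28.7 TPM in LV and 20.6 TPM in RV. For Mt1, replicate 1 was the lowest in LV WT-PLN at 166 TPM. In RV WT-PLN it had 181 TPM, above the 159 TPM of replicate 3. Without both samples, Mt2 in the LV differed by -2.15 on the log2 scale (limma adjusted p = 0.00264). Leaving out the lowest WT-PLN samples widens the Mt2 difference by itself, so this fit is no independent check of it.

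The level of Mt1 in the LV was 166, 276 and 211 TPM in WT-PLN and 101, 105 and 131 TPM in R14del-PLN. The groups did not overlap. The average of 218 ± 55.4 TPM in WT-PLN against 112 ± 16.0 TPM in R14del-PLN (SD, n = 3 each) was a 1.94-fold higher level in WT-PLN, and the log2 difference was -0.93 (standard error 0.25, 95% confidence interval -1.46 to -0.40, limma unadjusted p = 0.00224, adjusted p = 0.163). This did not pass the threshold with all 12 samples. It passed in 1 of the alternatives run, when RV R14del-PLN replicate 2 was left out (limma adjusted p = 0.0439).

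In the RV, Mt1 stood at 181, 232 and 159 TPM in WT-PLN and at 119, 60.1 and 104 TPM in R14del-PLN. The groups were again separate, and RV R14del-PLN replicate 2 was the lowest of all 12 samples for both metallothioneins. WT-PLN averaged 191 ± 37.3 TPM and R14del-PLN 94.2 ± 30.5 TPM (SD, n = 3 each), so the level was 2.03-fold higher in WT-PLN. The log2 difference of -1.05 (standard error 0.25, 95% confidence interval -1.58 to -0.52, limma unadjusted p = 0.00087, adjusted p = 0.124) did not pass the threshold.

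**Figure D1:**
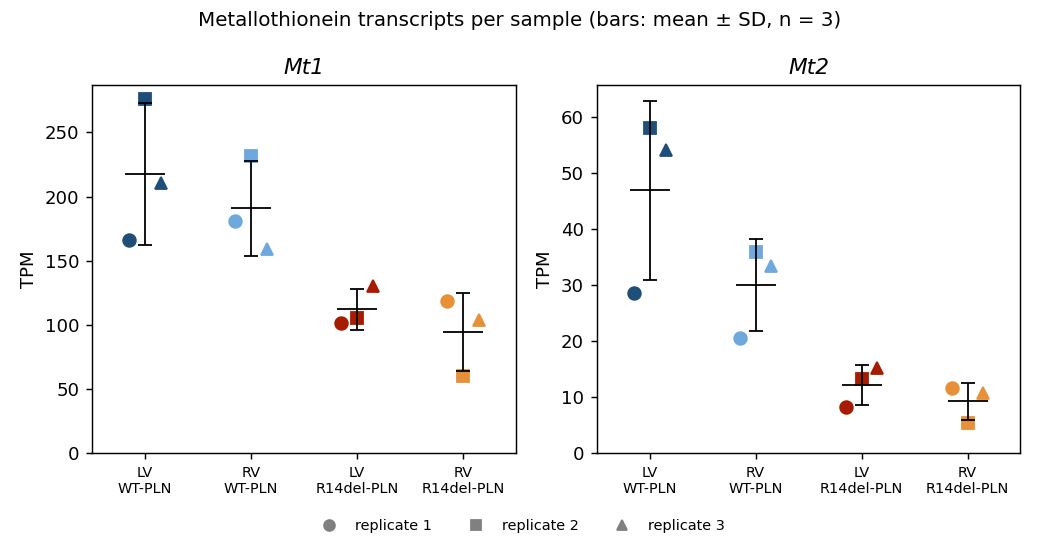
TPM of Mt1 (left) and Mt2 (right) in each sample, by ventricle and genotype, on linear axes that start at 0. Points are samples, horizontal lines are group means and bars are SD (n = 3). In both panels the R14del-PLN samples lie below all WT-PLN samples of either ventricle, at most 131 TPM against at least 159 TPM for Mt1, and at most 15.2 TPM against at least 20.6 TPM for Mt2.

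Ordered by mean, both metallothioneins ran from LV WT-PLN through RV WT-PLN and LV R14del-PLN to RV R14del-PLN. Neighbours of the same genotype overlapped, at 166 to 276 TPM and 159 to 232 TPM for Mt1 in LV and RV WT-PLN. The summed level of both genes was 265 ± 69.8 TPM in LV WT-PLN, 221 ± 41.1 TPM in RV WT-PLN, 124 ± 19.0 TPM in LV R14del-PLN and 103 ± 33.9 TPM in RV R14del-PLN (SD, n = 3 each). Mt1 made up most of this sum in every sample.

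Because the Mt2 difference was the larger, the ratio of Mt2 to Mt1 was computed in each sample, a measure chosen after the values were seen. In the LV it was 0.173, 0.210 and 0.257 in WT-PLN and 0.0815, 0.125 and 0.116 in R14del-PLN. In the RV it was 0.114, 0.155 and 0.210 in WT-PLN and 0.0975, 0.0885 and 0.103 in R14del-PLN. The genotypes were separate in each ventricle, with R14del-PLN lower by 0.105 in the LV and by 0.0632 in the RV. A two-sided exact permutation test gave p = 0.1 in each, the smallest value that 3 samples against 3 allow, so this design cannot reach 0.05. Across all 12 samples the log2 levels of Mt1 and Mt2 had a Pearson r of 0.947, and 0.797 once the 4 group means were removed. These r values describe 12 libraries that share genotype, ventricle and total scaling.

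**Figure D2:**
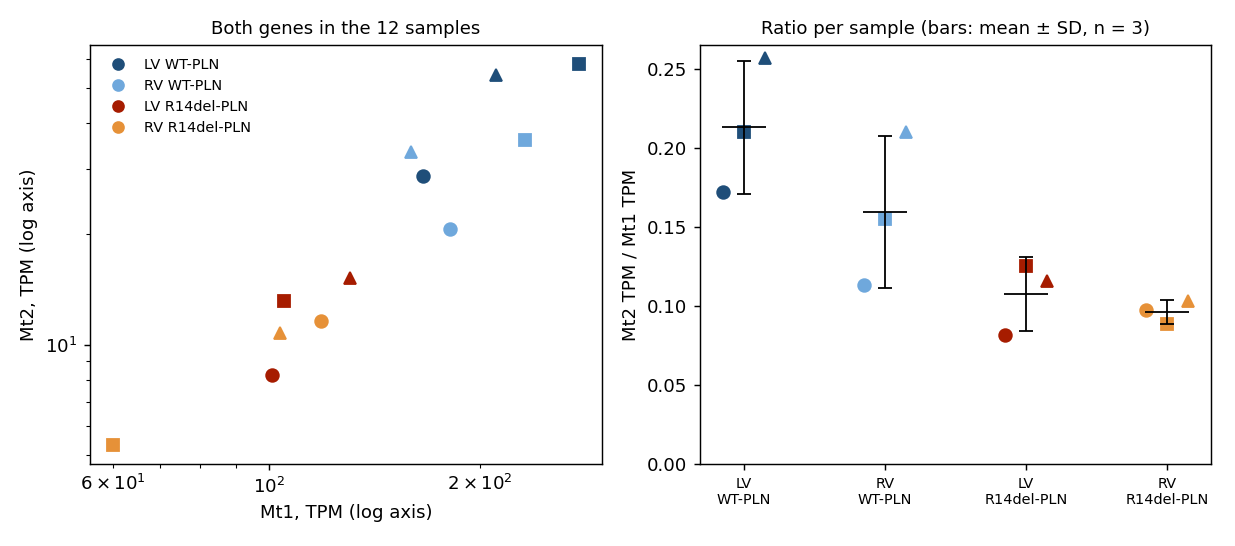
Left, Mt2 against Mt1 TPM in the 12 samples on log axes, coloured by group, with circles, squares and triangles for replicates 1, 2 and 3. Right, the ratio of Mt2 to Mt1 TPM per sample with group mean and SD (n = 3). The means were 0.213 in LV WT-PLN, 0.160 in RV WT-PLN, 0.108 in LV R14del-PLN and 0.0965 in RV R14del-PLN.

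The other 2 metallothionein genes of the mouse were scarce. Mt3, known from the brain, had a mean of 0.941 TPM and log2 differences between genotypes of -0.14 in LV (standard error 0.22) and -0.16 in RV, neither of which passed the threshold. Mt4, known from stratified epithelium, was listed at 0 in all 12 samples.

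Transcripts of Mtf1, which encodes the zinc sensor that drives metallothionein transcription, showed no such separation. A transcript level does not measure the activity of the protein, which was not tested. The Mtf1 level in the LV was 2.73, 3.08 and 3.71 TPM in WT-PLN and 2.46, 2.47 and 3.63 TPM in R14del-PLN. In the RV it was 2.29, 3.05 and 3.77 TPM in WT-PLN and 2.39, 3.03 and 2.73 TPM in R14del-PLN. The genotypes overlapped in both ventricles. The log2 differences were -0.12 in LV (95% confidence interval -0.48 to 0.24, limma adjusted p = 0.886) and -0.11 in RV (-0.47 to 0.25, adjusted p = 1.00). The gene lies at chr4:124802104-124849800 on the plus strand and overlaps 1110065P20Rik, a gene read from the minus strand with an average of 9.73 TPM. The libraries were stranded, but whether the counting used strand is not given in the sources used here, so reads shared by the pair may affect Mtf1. Mt2 and Slc30a1 (chr1:191906767-191913247, plus strand) also overlap an opposite-strand gene, Gm45774 and 1700034H15Rik.

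Slc30a1, the exporter of the plasma membrane, measured 3.06, 3.83 and 3.82 TPM in LV WT-PLN and 2.47, 2.71 and 2.96 TPM in LV R14del-PLN. These LV groups did not overlap. The log2 difference was -0.30 (standard error 0.13, 95% confidence interval -0.57 to -0.02, limma unadjusted p = 0.037, adjusted p = 0.468) and did not pass the threshold. In the RV the level was 2.40, 2.51 and 3.14 TPM in WT-PLN and 2.54, 2.96 and 2.45 TPM in R14del-PLN. The RV groups overlapped, with a log2 difference of -0.01 (95% confidence interval -0.29 to 0.27, limma adjusted p = 1.00) that turned to 0.01 under upper quartile scaling and to 0.02 when mitochondrially encoded genes were removed. LV WT-PLN held the highest mean, 3.57 ± 0.444 TPM, and the other 3 group means lay between 2.65 and 2.71 TPM.

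Slc39a14 (chr14:70303469-70351425, minus strand), the importer, had levels of 15.7, 16.8 and 18.8 TPM in LV WT-PLN and 12.0, 13.8 and 19.8 TPM in LV R14del-PLN. The RV levels were 14.8, 15.8 and 15.7 TPM in WT-PLN and 11.9, 16.7 and 12.7 TPM in R14del-PLN. The highest sample of all 12 was an R14del-PLN sample, as was the lowest. The SD was 4.07 and 2.58 TPM in LV and RV R14del-PLN against 1.57 and 0.545 TPM in WT-PLN. The highest, LV R14del-PLN replicate 3, had 37.3% of its TPM on mitochondrially encoded genes, the lowest share of all 12 samples. That share was 51.2% and 50.4% in LV R14del-PLN replicates 1 and 2, and its part in the spread was not tested. The log2 differences between genotypes were -0.18 in LV (95% confidence interval -0.55 to 0.18, limma adjusted p = 0.801) and -0.16 in RV (-0.53 to 0.21, adjusted p = 1.00).

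**Figure D3:**
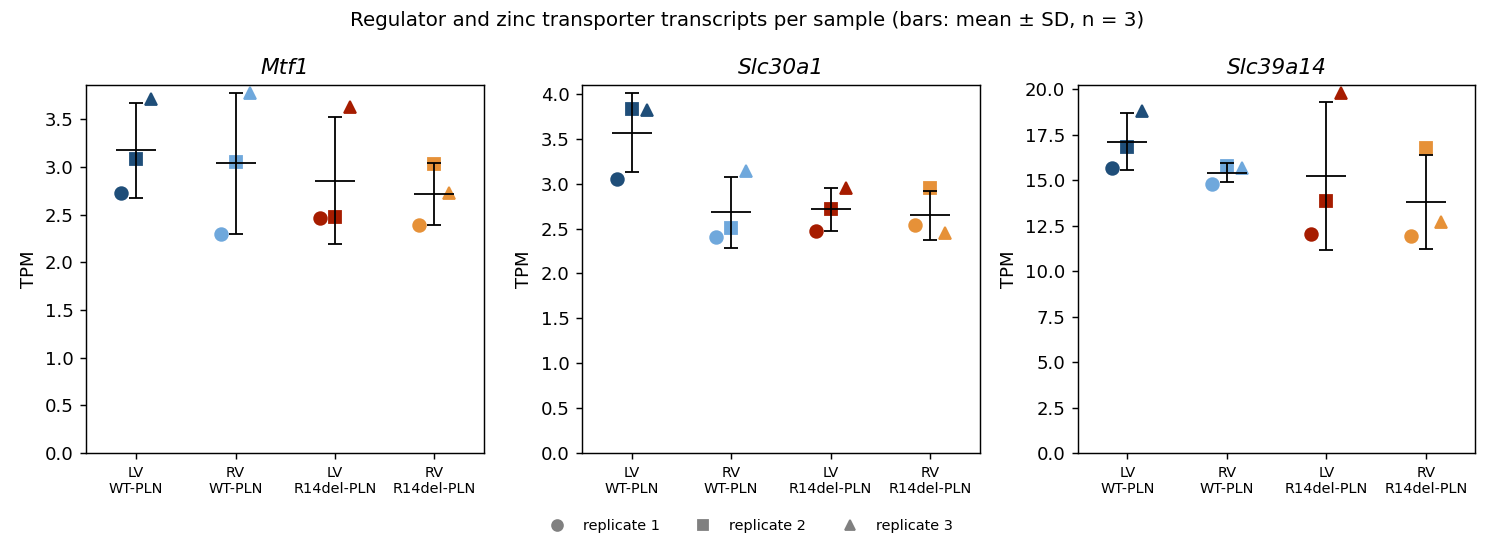
TPM of Mtf1, Slc30a1 and Slc39a14 in each sample by group, on linear axes that start at 0, with group mean and SD (n = 3). The genotypes overlap in each panel except for Slc30a1 in LV, at 3.06 to 3.83 TPM in WT-PLN and 2.47 to 2.96 TPM in R14del-PLN.

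Counted over the 5 genes, 3 were separate and lower in R14del-PLN in the LV (Mt1, Mt2 and Slc30a1) and 2 in the RV (Mt1 and Mt2). Among all genes tested, 8.47% were separate and lower in the LV comparison and 5.79% in the RV comparison. The median log2 difference over all genes was -0.0865 in LV and -0.00338 in RV. At an unadjusted p of 0.05, the limma fit picked out the same 3 and 2 members, against 9.6% and 6.22% of all genes. The members were chosen with earlier results of these data known, so these counts are no independent evidence of a difference.

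**Figure D4:**
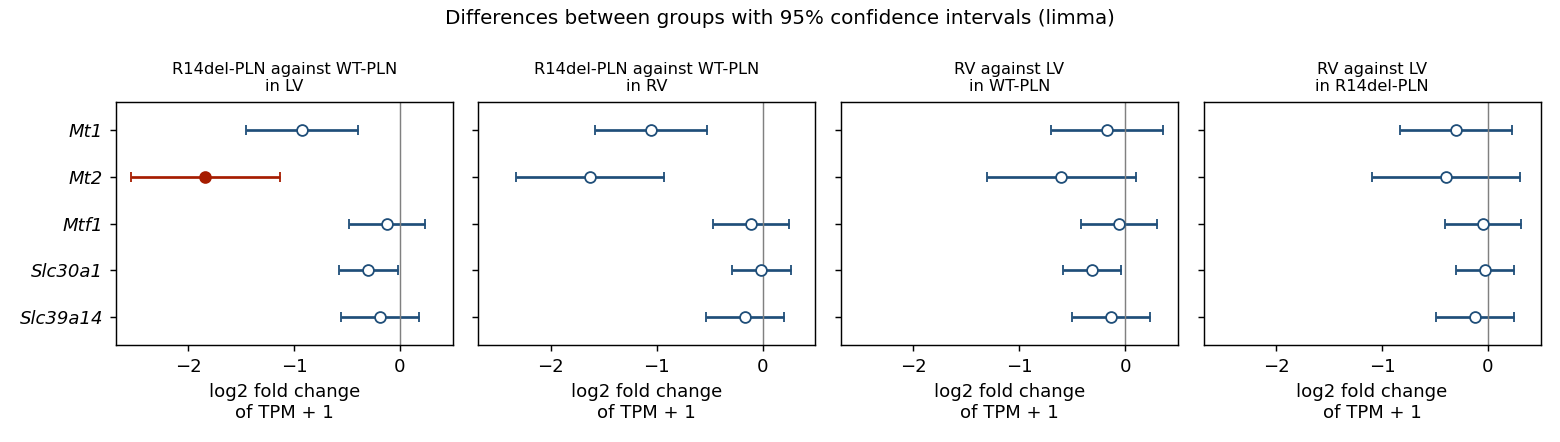
Log2 fold change of TPM + 1 with its 95% confidence interval (limma) for the 5 genes, in 4 comparisons. The filled point is the 1 called value, Mt2 at -1.84 in LV, and open points are not called. Mt1 and Mt2 lie left of 0 with their whole interval in both genotype comparisons, and Slc30a1 does so in LV between genotypes and in WT-PLN between ventricles.

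Between ventricles, none of the 5 genes was called in either genotype, nor was any of the genes tested. The comparisons called 0% of genes in WT-PLN and 0% in R14del-PLN by limma, with 1811 and 823 genes at an unadjusted p of 0.05. In WT-PLN the median of all genes was itself -0.165 in RV against LV. Relative to that median, the log2 differences were -0.44 for Mt2, -0.15 for Slc30a1, -0.01 for Mt1, 0.03 for Slc39a14 and 0.11 for Mtf1. Mt2 had the largest of these, with an LV range of 28.7 to 58.1 TPM and an RV range of 20.6 to 36.0 TPM that overlap (log2 -0.60 before the median is taken off, limma adjusted p = 0.387). No member was separate between ventricles, while 25.2% of all genes were separate and lower in RV WT-PLN and 8.72% in RV R14del-PLN. For Mt1, Mtf1 and Slc39a14 in WT-PLN, the sign of the unshifted difference turned from negative to positive under quantile normalization and upper quartile scaling. Slc30a1 kept a lower RV value in WT-PLN under all alternatives run (log2 -0.31, limma unadjusted p = 0.0295, adjusted p = 0.307).

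The ventricle and interaction tests given here are of the main fit, which paired no samples. LV and RV samples of the same number deviated together in WT-PLN. An alternative fit that paired samples by genotype and number called 12 genes between ventricles in WT-PLN, none of them a member. In R14del-PLN the RV minus LV log2 differences were -0.39 for Mt2, -0.30 for Mt1, -0.12 for Slc39a14, -0.04 for Mtf1 and -0.03 for Slc30a1, beside a median of -0.0759. Endothelial and red cell markers moved with the ventricle in WT-PLN. The summed level of 6 endothelial markers, none at 0, was 148 to 188 TPM in LV and 109 to 127 TPM in RV. For 5 red cell markers, none at 0, it was 2087 to 2316 TPM in LV and 1461 to 1736 TPM in RV. In R14del-PLN all 6 endothelial markers (median log2 -0.318) and all 5 red cell markers (median -0.402) were lower in RV too. The endothelial sums there were 145.3 to 184.0 TPM in LV and 117.6 to 145.2 TPM in RV. The red cell sums there overlapped, at 1093 to 2142 TPM in LV and 956 to 1368 TPM in RV. The share of TPM on mitochondrially encoded genes was 44.0% to 47.3% in LV WT-PLN and 48.7% to 52.7% in RV WT-PLN. The part of any of these in the ventricle differences of the members was not tested.

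Whether the genotype difference itself changed with the ventricle was tested by the interaction term. It was 0.29 for Slc30a1 (limma unadjusted p = 0.138), 0.21 for Mt2, -0.12 for Mt1, 0.02 for Slc39a14 and 0.01 for Mtf1 on the log2 scale, each with a limma adjusted p of 1.00. The interaction called 0% of all genes, with 127 genes at an unadjusted p of 0.05. The Mt2 call in LV and its absence in RV are thus not shown to differ, and the same holds for the Slc30a1 separation seen in LV. The signs for Mtf1 and Slc39a14 turned negative under quantile normalization and upper quartile scaling.

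The wider zinc transporter families showed no call either. Of 10 exporters of the SLC30 family, 6 passed the level filter and 4 did not, and of 14 importers of the SLC39 family, 9 passed and 5 did not. No exporter or importer was called by limma in any of the 4 comparisons, and none was called under any of 24 alternatives in the genotype comparisons. At an unadjusted p of 0.05, Slc30a1 in LV was the only one between genotypes. Between ventricles in WT-PLN there were 3, namely Slc30a1, Slc39a3 (log2 -0.27) and Slc39a7 (log2 -0.39), and there were none in R14del-PLN. The median log2 difference between genotypes was -0.135 in LV and -0.0435 in RV for exporters and -0.0671 and 0.0363 for importers.

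By level, the leading exporter was Slc30a9, a mitochondrial zinc transporter, with a mean of 97.7 TPM. Its 12 samples ran from 77.3 to 125 TPM with both extremes in LV R14del-PLN. The highest was again replicate 3, with 37.3% of its TPM on mitochondrially encoded genes. The log2 difference of Slc30a9 between genotypes was -0.17 in LV and 0.02 in RV. Slc30a5, an exporter of the early secretory pathway, had 5.85 TPM and Slc30a1 came next. Among importers, Slc39a7, which releases zinc from the endoplasmic reticulum, led with 20.8 TPM. Its RV levels were 16.5, 17.4 and 17.0 TPM in WT-PLN and 18.6, 24.7 and 18.5 TPM in R14del-PLN, a log2 difference of 0.25 (limma unadjusted p = 0.135) with separate groups. In LV Slc39a7 differed by less than 0.01. Slc39a1, an importer of the plasma membrane, followed with 20.02 TPM and differences of 0.03 and 0.11, ahead of Slc39a14.

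Outside the metallothioneins, 10 symbols described as MTF1 targets were listed, of which 8 were tested and none was called in any comparison. One entry of the list is an older symbol of Selenow. Between genotypes 4 had an unadjusted p under 0.05 in LV (Pgf, Ndrg1, Csrp1 and Slc30a1), all lower in R14del-PLN, and 1 in RV (Pgf), beside 9.6% and 6.22% of all genes in either direction. These names were chosen after their values were seen. Pgf, which encodes placental growth factor, was 3.59, 5.80 and 5.75 TPM in LV WT-PLN and 1.84, 2.58 and 2.38 TPM in LV R14del-PLN, and 3.74, 4.44 and 6.66 TPM in RV WT-PLN and 2.14, 1.65 and 2.20 TPM in RV R14del-PLN. The groups were separate in each ventricle, with log2 differences of -0.87 (limma adjusted p = 0.0798) and -0.96 (adjusted p = 0.0741). The median over the 8 genes was -0.175 in LV and -0.058 in RV.

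The glucocorticoid-induced list held 12 genes and all were tested. It was known from earlier results of these samples to be lower in R14del-PLN and is no independent evidence of its direction. In LV, where 0.423% of all genes were called and lower, 8 of the 12 were so by limma: Fkbp5, Tsc22d3, Per1, Zbtb16, Klf9, Cebpd, Nfkbia and Cdkn1a. In RV, where that share was 0.2%, there were 4: Tsc22d3, Per1, Zbtb16 and Nfkbia. Tsc22d3, which encodes the glucocorticoid-induced leucine zipper, stood at 89.5 ± 15.2 TPM in LV WT-PLN and 38.4 ± 6.96 TPM in LV R14del-PLN (SD, n = 3 each), and at 83.7 ± 6.18 TPM and 37.5 ± 2.33 TPM in RV. All 12 had a negative log2 difference in both ventricles, with medians of -1.2 and -1.01, beside -0.93 and -1.05 for Mt1 and -1.84 and -1.63 for Mt2. The counts called without both WT-PLN samples of number 1 were 10 in LV and 6 in RV, and the RV count was 1 when RV WT-PLN replicate 2, RV WT-PLN replicate 3 or RV R14del-PLN replicate 3 was left out. In LV it was 3 when WT-PLN replicate 2, WT-PLN replicate 3, R14del-PLN replicate 1 or R14del-PLN replicate 2 was left out.

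**Figure D5:**
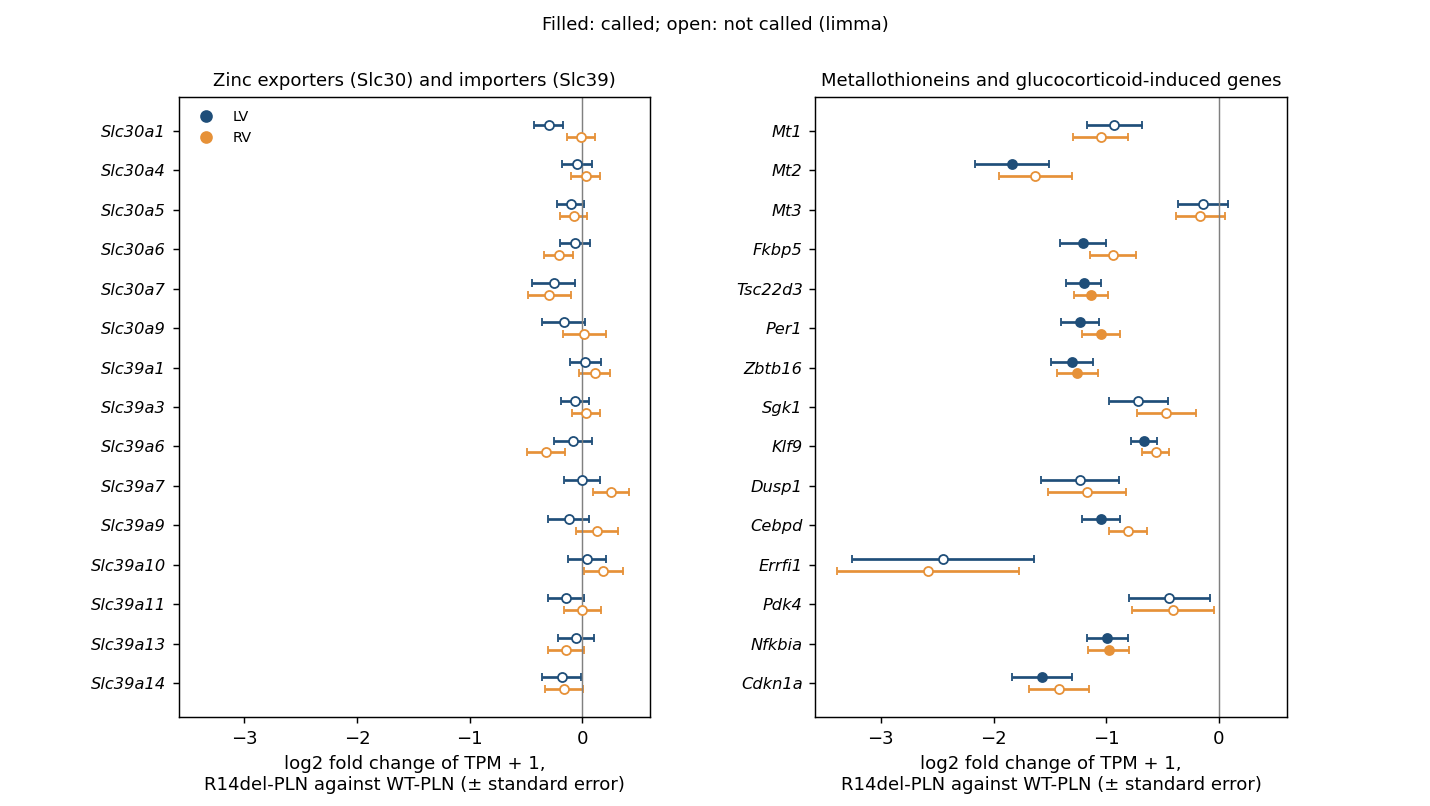
Log2 fold change of TPM + 1, R14del-PLN against WT-PLN, with its standard error, in LV (blue) and RV (orange). Left, the 15 zinc transporters tested, none called and all between -0.32 and 0.25. Right, the 3 metallothioneins tested and the 12 glucocorticoid-induced genes, where filled points are called.

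The genes most like each metallothionein were ranked by Pearson r of log2(TPM + 1) over the 12 samples, which share genotype and ventricle. For Mt1 they were Slc25a33 (0.952), Cebpb (0.95), Mt2 (0.947), Spata2l (0.941) and Gchfr (0.936). For Mt2 they were Cebpb (0.985), S100a10 (0.972), Lrrc8a (0.971), Rsrp1 (0.969) and Cebpd (0.965). Cebpb, a C/EBP transcription factor, was on both lists. It measured 13.9, 21.3 and 21.8 TPM in LV WT-PLN and 6.24, 6.01 and 7.08 TPM in LV R14del-PLN. In the RV it measured 10.8, 16.3 and 14.3 TPM in WT-PLN and 5.82, 3.32 and 5.84 TPM in R14del-PLN. Like Mt2, it was lowest in RV R14del-PLN replicate 2 and lowest among LV WT-PLN samples in replicate 1. After the group means were removed, r with Cebpb was 0.826 for Mt1 and 0.917 for Mt2.

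Slc39a14 followed other genes. Among the genes most like it were Emd (0.971), Magoh (0.966) and Gfpt1 (0.956), and the limma adjusted p of these 3 genes between genotypes in LV lay between 0.762 and 0.878. Its r with Mtf1 was 0.782, which placed Mtf1 only at rank 1587 for Slc39a14 among the genes tested. Mtf1 had an r of 0.274 with Mt1 and of 0.471 with Mt2, beside the 0.947 between Mt1 and Mt2.

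The tissue matched its label, with cardiomyocyte markers (Myh6, Tnnt2, Tnni3, Myl2, Actc1, Ryr2) summing to 28419 to 43108 TPM in the 12 samples, and between 17924 and 18879 genes were above 0. Sequencing depth is not given by TPM, so no counting error can be attached to low genes such as Mtf1 and Slc30a1. Red cell markers were lower in R14del-PLN in both ventricles, as Mt1 and Mt2 were, although none was called. All 5 had a negative log2 difference in each, with medians of -0.623 in LV and -0.587 in RV and an unadjusted limma p under 0.05 for 4 and 3 of them. Their sum was 2087 to 2316 TPM in LV WT-PLN and 1093 to 2142 TPM in LV R14del-PLN, with overlap, and 1461 to 1736 TPM in RV WT-PLN and 956 to 1368 TPM in RV R14del-PLN, without. Summed markers of cardiomyocytes, atrial cardiomyocytes, endothelial cells, fibroblasts, macrophages, neutrophils, smooth muscle and adipocytes overlapped between genotypes in each ventricle. Single markers of some of these lists still moved with genotype in the LV, none of them called. The 5 atrial markers tested all had a negative log2 difference there, with a median of -2.3, and 6 of 6 fibroblast markers (median -0.34), 4 of 4 adipocyte markers (median -0.683) and 2 of 2 neutrophil markers (median -1.11) were negative too. The atrial marker Myl7 was 39.4, 0.512 and 299 TPM in LV WT-PLN and 0.190, 0.440 and 0.329 TPM in LV R14del-PLN, so the groups were separate while LV WT-PLN spread widely. In RV, Myl7 was 1.35, 320 and 1.46 TPM in WT-PLN and 28.5, 212 and 5.75 TPM in R14del-PLN, with overlap. In RV the medians were 0.0331 for atrial, -0.153 for fibroblast, 0.349 for adipocyte and -0.448 for neutrophil markers. The endothelial marker Kdr went the other way in LV, at 11.9 to 14.1 TPM in WT-PLN and 15.6 to 20.6 TPM in R14del-PLN. Its log2 difference there was 0.47 (limma unadjusted p = 0.0364), and it was not called. Of the endothelial markers, 3 were negative and 3 positive in LV, and 1 was higher at an unadjusted p of 0.05 in each ventricle. Myl7 and Kdr were named after their values were seen. The part of red cell, atrial, endothelial, fibroblast, adipocyte or neutrophil transcripts in the metallothionein differences was not tested. One library, RV R14del-PLN replicate 3, is assigned to another sequencing run by the name of its table, and without it the log2 differences in RV were -1.76 for Mt2 (limma adjusted p = 0.130) and -1.15 for Mt1 (adjusted p = 0.236).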

How the data were processed

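Trizol RNA of 12 ventricle samples was made into TruSeq libraries, described by the study as polyA-selected and stranded. The authors deposited 1 table of TPM per sample, which add up to the same total in every sample. The study names CLC Genomics Workbench for mapping reads to GRCm38, without saying how TPM was computed, and the annotation and strand setting are not given in the sources used here. Read counts and depth were not used here, so no count model was run.

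Levels were analysed as log2(TPM + 1) with limma 3.58.1 in R 4.3.3 (4 group means in 1 model of all 12 samples, 8 residual degrees of freedom, empirical Bayes with intensity trend), over genes whose mean reached 0.5 TPM. A fold change on this scale understates the change of low genes. P-values were adjusted by the Benjamini-Hochberg method over all 12526 genes. A gene was called where its adjusted p was 0.05 or lower and its change 1.5-fold or larger, and the interaction at the adjusted p alone. Groups were called separate when their ranges did not overlap. The fit was tested on simulated data.

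The 5 members and all lists were chosen with earlier results of these data known. Named besides the members were list genes called in any comparison between groups, the 3 SLC30 and 3 SLC39 genes with the highest mean, those at an unadjusted p of at most 0.05 between genotypes, and the 5 genes most like Mt1, Mt2 and Slc39a14 by r. Some of the genes most like Slc39a14 are not reported here. Replicate numbers come from the sample titles. LV and RV samples of the same number correlated in their deviations from group means at 0.321 to 0.657 in WT-PLN and at 0.0542 to 0.389 in R14del-PLN. The main fit paired no samples. The alternative with a block of genotype and number paired LV and RV samples in both genotypes. Promoter windows are RefSeq on GRCm38.p6, positions are GENCODE. BLAST 2.17.0 of the members' transcripts found no other gene at 95% identity over 80% of the shorter transcript. Alternatives changed the pseudocount (0.5, 0.1), the filter (1 TPM, 5 TPM, none), the scaling, the trend, the block, the samples fitted and the fold threshold, and left out each sample in turn.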

Additional observations from a re-analysis of the deposited data

How the results depend on the processing

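Mt1 and Mt2 kept a lower R14del-PLN level in both ventricles under all 24 alternatives run. The Mt2 call in LV was lost without the level filter (log2 -1.84, adjusted p = 0.126) and by limma when 1 of 4 LV samples was left out, with log2 values of -2.15 to -1.60 over the samples left out in turn and adjusted p of 0.00264 to 0.134 over all alternatives. Mt2 in RV became a call with the filter at 5 TPM (log2 -1.63, adjusted p = 0.0400), quantile normalization (-1.61, 0.0482), upper quartile scaling (-1.61, 0.0430), the replicate block (-1.63, 0.0348), without LV WT-PLN replicate 1 (0.0315), without RV WT-PLN replicate 1 (0.0445) and without both WT-PLN samples of number 1 (-1.87, 0.00944), all by limma. It stayed uncalled in the other 17 of 24 alternatives, and limma adjusted p ran from 0.00944 to 0.311 over all of them. Leaving out 1 sample gave log2 values of -1.87 to -1.31 for Mt2 in RV. For Mt1, leaving out 1 sample gave -1.11 to -0.74 in LV and -1.24 to -0.76 in RV, with limma adjusted p over all alternatives of 0.0439 to 0.560 and 0.0930 to 0.573.

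The numbers of genes called moved more. In LV 65 genes became 22 with no filter, 104 under quantile normalization, 99 under upper quartile scaling, 119 under the replicate block, 231 without both WT-PLN samples of number 1, and 19 to 153 with 1 sample left out. In RV 34 became 17 with no filter, 85 under quantile normalization, 88 under upper quartile scaling, 73 without mitochondrially encoded genes, 62 under the replicate block, 88 without both WT-PLN samples of number 1, and 14 to 48 with 1 sample left out. Between ventricles in WT-PLN the count of 0 became 1 with no filter, 2 without mitochondrially encoded genes, 12 with the replicate block of genotype and number, 1 with the 6 samples alone, 2 without both WT-PLN samples of number 1, and 0 to 4 with 1 sample left out. In R14del-PLN it was 0 to 1 with 1 sample left out, and for the interaction 2 with no filter and 0 to 1 with 1 sample left out. The count of glucocorticoid-induced genes called, 8 in LV and 4 in RV, became 4 and 1 with no filter, 7 in RV under quantile normalization and under upper quartile scaling, and 3 to 9 in LV and 1 to 5 in RV with 1 sample left out. The causes were not tested.

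Signs turned only for values that were not called. Slc30a1 between genotypes in RV became 0.00847 under upper quartile scaling and 0.0249 without mitochondrially encoded genes, and gave -0.0709 to 0.0757 with 1 sample left out, and Mtf1 there gave -0.246 to 0.0217. RV against LV in WT-PLN became 0.0347, 0.102 and 0.0412 under quantile normalization and 0.0178, 0.0889 and 0.0453 under upper quartile scaling for Mt1, Mtf1 and Slc39a14. Mtf1 gave 0.0510 without mitochondrially encoded genes and 0.00474 without both WT-PLN samples of number 1, and with 1 sample left out Mt1 gave -0.355 to 0.0109 and Mtf1 -0.185 to 0.0829. RV against LV in R14del-PLN became 0.0230 for Mtf1 and 0.0304 for Slc30a1 under quantile normalization, 0.0337 and 0.0450 under upper quartile scaling, and 0.0933, 0.107 and 0.0376 for Mtf1, Slc30a1 and Slc39a14 without mitochondrially encoded genes. With 1 sample left out these gave -0.113 to 0.0957, -0.0864 to 0.0202 and -0.262 to 0.0759. The interaction became -0.0792 for Mtf1 and -0.0670 for Slc39a14 under quantile normalization, -0.0551 and -0.0697 under upper quartile scaling, and 0.0276 for Mt1 and -0.0476 for Mtf1 without both WT-PLN samples of number 1. With 1 sample left out it gave -0.317 to 0.169 for Mt1, -0.0339 to 0.523 for Mt2, -0.126 to 0.152 for Mtf1 and -0.123 to 0.214 for Slc39a14.

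Same-numbered samples of the 2 genotypes correlated at -0.0209 to 0.156 in LV and 0.061 to 0.219 in RV. Those of different numbers correlated at -0.164 to 0.0687 in LV and -0.162 to 0.0788 in RV. The labels do not say what a number shares between genotypes, so the replicate block (119 and 62 genes called) is no paired test. Whether same-numbered samples were handled together was not tested. After the group means were removed, Rras was the gene most like Mt1 (r = 0.959), Ift22 most like Mt2 (0.948) and Aars most like Slc39a14 (0.989). TPM gives no depth, so the precision of low genes is limited by the 3 samples a group and is otherwise unknown. Mtf1 and Slc30a1 have no value under the filter at 5 TPM.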

Other observations

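Copper is the other metal that metallothioneins hold, and 10 copper-handling genes were listed, of which 9 passed the level filter and none was called by limma in any comparison. Atp7a, the copper-exporting ATPase, had means of 1.93 TPM in LV WT-PLN and 1.08 TPM in LV R14del-PLN, and of 1.91 TPM and 1.18 TPM in RV. Its log2 differences were -0.48 (limma unadjusted p = 0.0109, adjusted p = 0.303) and -0.41 (0.0236, adjusted 0.655), and it was the only gene of the list at an unadjusted p under 0.05 between genotypes. Atox1, the chaperone that hands copper to that pump, had a lower mean in RV than in LV, at 26.3 against 37.6 TPM in WT-PLN and 24.2 against 38.2 TPM in R14del-PLN, with log2 differences of -0.50 (limma adjusted p = 0.282) and -0.66 (adjusted p = 0.711). Both genes were chosen after their values were seen. The median of the list was 0.0227 in LV and -0.119 in RV between genotypes, beside -0.0865 and -0.00338 for all genes.

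Genes of the interleukin-6 and STAT3 response, a known inducer of metallothioneins and of Slc39a14, numbered 12 and all were tested. None was called by limma. Between genotypes in LV, 4 had an unadjusted p under 0.05 and were lower in R14del-PLN, namely the feedback inhibitor Socs3 (log2 -0.61), the receptor Il6ra (-0.44), Lrg1 (-0.38) and Fgl2 (-0.65), and in RV only Il6ra (-0.42). Over all genes 9.6% in LV and 6.22% in RV had such a p in either direction. These too were chosen after their values were seen. The median of the list was -0.346 in LV and -0.126 in RV.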
